A study of Canis lupus familiaris with 4 samples.

Results

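The genes described here are those of the antioxidant defence and of the NRF2 response, a list of 38 symbols, of which 32 stand in the deposited table of 30951 canine genes under their own symbol. GCLM, TXN, PRDX5, GPX4, GPX7 and TALDO1 were not analysed here under those symbols. The rows were taken by symbol alone, and each of these 32 symbols had 1 row. Total RNA came from untreated mesenchymal stromal cells (MSCs) of canine adipose tissue, 1 primary cell line and 1 library per dog, from 4 dogs in 1 group. Culture was in DMEM that held fetal bovine serum at 10% with antibiotics and an antifungal agent, at 37 °C and 5% CO2, and cells were taken 48 h after seeding in 24-well plates. By its title, the series concerns how the lyosecretome of such cells, their freeze-dried secreted products, acts on microbes. No age, sex, breed or passage is stated in the sources used here, and there is no treated group, so the comparisons are of each gene with the median gene of its own library and of the dogs with each other.

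NRF2, the product of NFE2L2, is a transcription factor that the adaptor KEAP1 holds in the cytoplasm and hands to a ubiquitin ligase for destruction. Oxidants and electrophiles modify cysteines of KEAP1, NRF2 escapes, enters the nucleus and pairs with small MAF proteins at antioxidant response elements of genes that make and recycle glutathione, reduce thioredoxin, supply NADPH and detoxify quinones. Gene roles are given as known for the human and mouse genes of the same symbol.

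Reads assigned to genes ranged from 7474011 in dog 4 to 22411268 in dog 1, and all 32 genes had reads in all 4 dogs. Of 8 MSC marker genes, 7 passed the level test described below as above and NT5E, which encodes CD73, as below. Of 5 blood markers in the table none was detected. Of 5 endothelial markers none was above, 2 were below, and VWF and KDR were neither. VWF had 380, 62, 214 and 12 reads in dogs 1 to 4. PECAM1 and CDH1 had 0 reads in every dog. The adipocyte markers PLIN1 and LEP were below, and LEP had 0, 1, 4 and 37 reads in dogs 1 to 4. The summed level of the epithelial markers, measured through EPCAM, KRT18 and CDH1, was 58.2 CPM (reads per 1000000 assigned reads) in dog 4 and 0.446 to 1.64 CPM in dogs 1 to 3, of which KRT18 made 435 reads in dog 4. Smooth muscle and pericyte markers summed to 6964 CPM in dog 4 and 2042 to 3914 CPM in the others. ACTA2 and TAGLN made most of this sum, RGS5 had 0 reads in every dog and DES was below. MSC markers summed to 26416 CPM in dog 4 and 43215 to 48542 CPM in the others. Most of this sum was COL1A1, with 901805, 713819, 690257 and 173546 reads in dogs 1 to 4. By level, ITGB1 and ENG were highest in dog 4, and NT5E, CD44, PDGFRB and PDGFRA were lowest there. The part of these differences in the results on dog 4 was not tested. In such bulk samples, fewer cells of a type and less RNA per cell cannot be told apart.

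Most of the antioxidant genes lay above the median detected gene of their library. A gene's level is its deposited log2 value minus the median of the genes detected in that library (reads in at least 2 of 4 libraries). Tested against a distance of 1 log2 unit (limma, Benjamini-Hochberg adjusted p under 0.05 over 17200 genes), 26 of the 32 were above the median detected gene, 1 was below and 5 were neither. Over all tested genes 33.3% were above and 35.8% below. The median level was 2.67 over the members and -0.02 over all tested genes. Levels are not corrected for gene length, for which no transcript lengths were at hand, so a level and the call made from it depend in part on gene length, and the order of genes by level is not an order of transcript number.

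**Figure D1:**
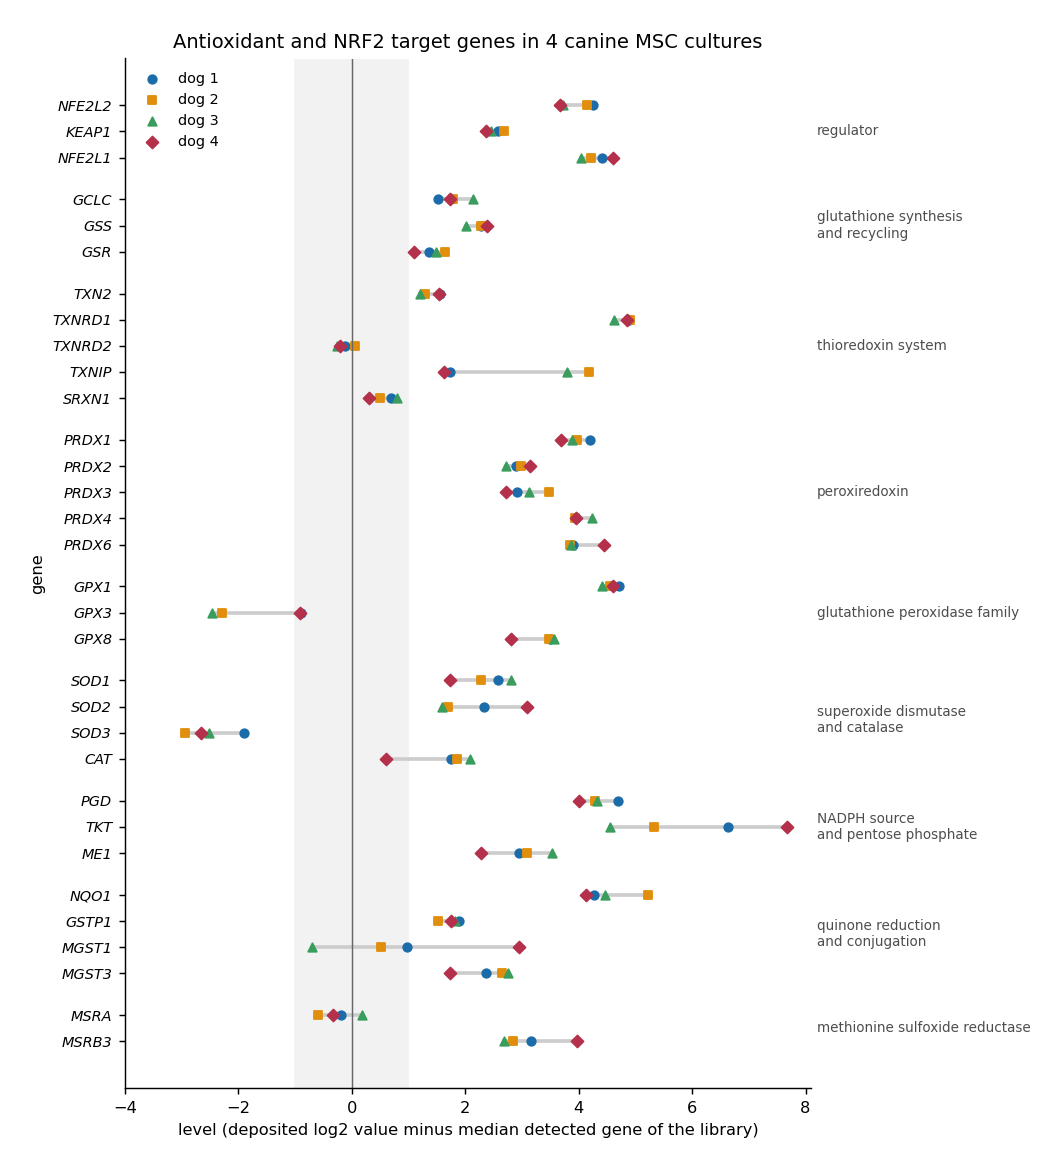
Level of each of the 32 genes in the 4 dogs, grouped by role, on the log2 scale relative to the median detected gene of the same library. Each symbol is 1 library, grey lines join the lowest and highest dog, and the shaded band is the distance of 1 log2 unit. MGST1, TKT and TXNIP have the widest lines, and SOD3 and GPX3 lie left of 0 in all dogs.

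The 3 regulators were above in every dog. NFE2L2 had 3000, 2830, 2118 and 1995 normalized reads (reads divided by the library's size factor) in dogs 1 to 4 and a level of 3.95 ± 0.29 (log2, mean ± SD, n = 4, as for all levels given with ± here). KEAP1 had 925, 1013, 860 and 800 normalized reads and a level of 2.52 ± 0.14. Dogs 1 and 2 were the higher 2 for both genes, and the range between dogs was 1.27-fold for KEAP1. NFE2L1 encodes NRF1, the related factor that drives proteasome genes when proteasome activity falls. It had 3357, 2965, 2641 and 3828 normalized reads and a level of 4.32 ± 0.24. Dog 4 was highest for NFE2L1 and lowest for NFE2L2 and KEAP1. A ratio of 2 genes carries the unknown lengths as a constant, so its differences between dogs are free of them: the ratio of NFE2L1 to NFE2L2 spanned 1.83-fold over the 4 dogs and that of KEAP1 to NFE2L2 1.32-fold.

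NQO1, the quinone reductase often used as a readout of NRF2 activity, differed between dogs by 2.19-fold. It had 3044, 6014, 3533 and 2752 normalized reads in dogs 1 to 4 and a level of 4.52 ± 0.49. Dog 2 lay highest, and without dog 2 the SD was 0.17. NFE2L2 itself was highest in dog 1. Of other NRF2 targets among the members, only some of which are named here, the reductases GSR and TXNRD1 were also highest in dog 2. For TXNRD1 the lead was small, at 4796 normalized reads against 4686 in dog 1. The ligase subunit GCLC, malic enzyme ME1 and the sulfiredoxin SRXN1 were highest in dog 3 and the dehydrogenase PGD in dog 1. PRDX1 and GSTP1 were also highest in dog 1, and TKT, PRDX6 and MGST1 in dog 4. Over all members, dogs 1 to 4 were highest for 8, 7, 9 and 8 genes.

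Genes of glutathione synthesis and recycling ranged between dogs by 1.58-fold for GCLC, 1.29-fold for GSS and 1.52-fold for GSR. GCLC, the catalytic subunit of the enzyme that sets the pace of glutathione synthesis, had 435, 534, 688 and 507 normalized reads and a level of 1.79 ± 0.25. The synthetase GSS, which adds glycine in the last step, stood at 2.24 ± 0.16. GSR, which returns oxidized glutathione to its reduced form with NADPH, stood at 1.40 ± 0.23 and was above with all 4 dogs (limma, adjusted p = 0.0128), but not without dog 1 (level 1.16), dog 2 (1.06) or dog 3 (1.20). All 3 measured genes of this group were above the median detected gene.

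In the thioredoxin system both reductases among the members were steady across dogs and TXNIP was not. The reductase TXNRD3, from the wider lists, was less steady. It was neither at 0.82 ± 0.79, with levels of 1.52, 0.84, 1.23 and -0.28 in dogs 1 to 4. TXNRD1, the cytosolic selenoenzyme that reduces thioredoxin, had 4686, 4796, 3969 and 4550 normalized reads and a level of 4.82 ± 0.13, with a range between dogs of 1.21-fold, the narrowest of the 32 genes. TXNRD2, the mitochondrial reductase, had 126, 149, 115 and 117 normalized reads and was neither above nor below at -0.13 ± 0.14. Their ratio spanned 1.20-fold over the 4 dogs. Mitochondrial thioredoxin TXN2 stood at 1.40 ± 0.17 and was above (limma, adjusted p = 0.00991), but lost the call when any 1 dog was left out (levels 1.09, 1.17, 1.29 and 1.12 without dogs 1 to 4). SRXN1, which repairs overoxidized peroxiredoxins, was neither, at 0.57 ± 0.21.

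TXNIP encodes an inhibitor of thioredoxin that also restrains glucose uptake and is induced by glucose. It had 505, 2905, 2208 and 468 normalized reads in dogs 1 to 4. Dogs 2 and 3 lay together at the high end and dogs 1 and 4 together at the low end, with a 6.20-fold range between the highest and the lowest dog. Its level was 2.83 ± 1.34, and the SD was 1.23 to 1.44 when 1 dog was left out. Of the members it gave the smallest p in the test of variability (F = 29.1, unadjusted p = 0.000483, adjusted p = 0.212 on limma's prior, n = 4), so it did not pass.

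All 5 measured peroxiredoxins, the thiol peroxidases that clear most hydrogen peroxide in the cell, were above. PRDX1 stood at 3.94 ± 0.21, PRDX2 at 2.93 ± 0.18 and mitochondrial PRDX3 at 3.06 ± 0.33. PRDX4, the form of the endoplasmic reticulum, had 2434, 2457, 3028 and 2453 normalized reads. Dog 3 stood apart from 3 nearly equal dogs, and without it the SD of the level (4.02 ± 0.14) was 0.02. PRDX6, a 1-cysteine peroxiredoxin that also acts on phospholipids, had 2336, 2309, 2343 and 3455 normalized reads, with dog 4 apart from the others. Its level was 4.02 ± 0.29, and the SD was 0.02 without dog 4. Dog 4 was lowest for PRDX1 and PRDX3, so the ratio of PRDX6 to PRDX1 spanned 2.12-fold between dogs.

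In the glutathione peroxidase family GPX1 was steady across dogs, GPX8 had dog 4 apart, and the secreted GPX3 had the fewest reads. GPX1, the general cytosolic selenoenzyme, had 4136, 3756, 3399 and 3828 normalized reads and a level of 4.57 ± 0.13, the smallest SD of the 32 genes. GPX8, which sits in the membrane of the endoplasmic reticulum and lacks selenocysteine, had 1771, 1783, 1886 and 1089 normalized reads. Dog 4 stood apart below the others, and the SD of its level of 3.34 ± 0.36 was 0.05 without dog 4. GPX3, the secreted plasma form, had 92, 17, 13 and 30 reads. Their exact 95% Poisson intervals, which cover counting error only, ran from 74.2 to 113, from 9.90 to 27.2, from 6.92 to 22.2 and from 20.2 to 42.8. Relative to depth these are 4.11, 1.05, 0.855 and 4.01 CPM, so dogs 1 and 4 lay about level and dogs 2 and 3 lower. Its level of -1.64 ± 0.85 did not pass the test with 4 dogs (limma, adjusted p = 0.0597), and it was below without dog 1 (-2.14) or dog 4 (-2.11).

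Superoxide dismutases turn superoxide into hydrogen peroxide, which catalase breaks down, and these genes differed in which dog was high. SOD2, the mitochondrial enzyme and a known target of inflammatory signalling, had 779, 499, 468 and 1327 normalized reads in dogs 1 to 4. SOD1, the cytosolic enzyme, had 927, 758, 1107 and 507. SOD2 was highest in dog 4 and lowest in dog 3, and SOD1 was highest in dog 3 and lowest in dog 4. The ratio of SOD1 to SOD2 spanned 6.18-fold, with an SD of 1.12 on the log2 scale that was 0.50 without dog 4. Levels were 2.18 ± 0.69 for SOD2 and 2.35 ± 0.46 for SOD1, and without dog 4 the SDs were 0.40 for SOD2 and 0.27 for SOD1.

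Catalase (CAT), the peroxisomal enzyme, had 516, 561, 666 and 221 normalized reads, lowest in dog 4. Its level of 1.58 ± 0.66 was above (limma, adjusted p = 0.0214), but not without dog 1 (1.26), dog 2 (1.23) or dog 3 (1.23), and its SD was 0.18 without dog 4. The secreted SOD3 was the only member below, at -2.50 ± 0.44 (limma, adjusted p = 0.000228, n = 4, below in 4 of 4 dogs). It had 34, 6, 12 and 4 reads, that is 1.52, 0.369, 0.789 and 0.535 CPM. Dog 1 was highest, with a Poisson interval of 23.5 to 47.5 reads. Scaled to depth, that interval overlapped those of dogs 3 and 4 and lay above that of dog 2. The SD was 0.22 without dog 1. Neither of the secreted enzymes, SOD3 and GPX3, exceeded 4.11 CPM in any library.

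**Figure D2:**
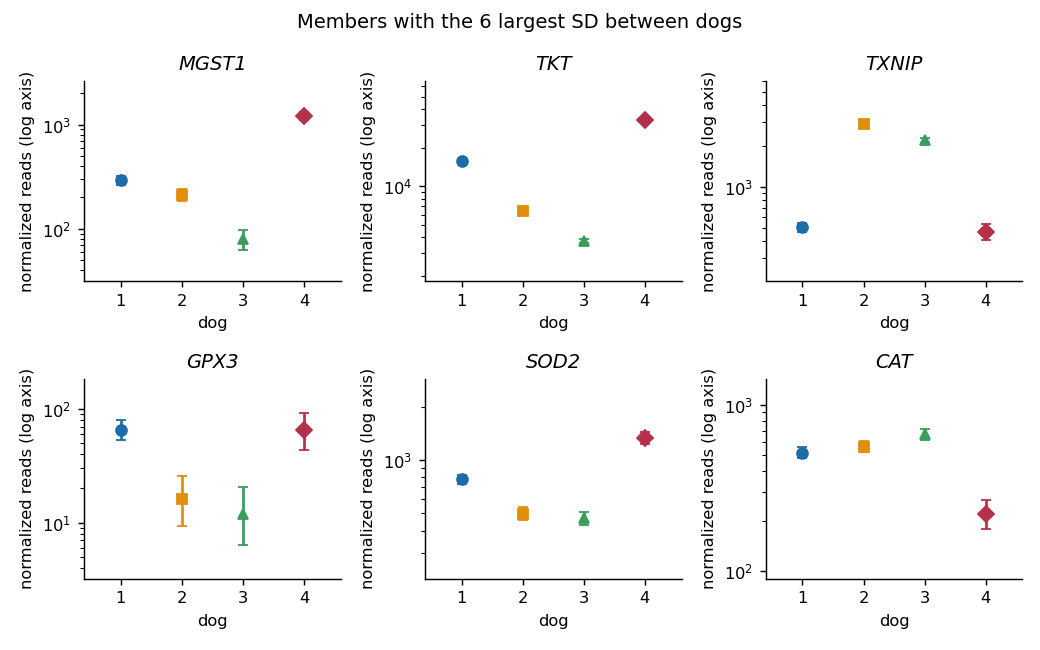
Normalized reads per dog (log axis) of the genes with the 6 largest SD between dogs. Points are single libraries and bars are exact 95% Poisson intervals of the reads, scaled by the size factor. TKT, MGST1 and SOD2 are highest in dog 4, CAT is lowest there, and TXNIP is high in dogs 2 and 3.

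Among the members of NADPH supply and the pentose phosphate pathway, TKT stood out between dogs. NADPH fuels both the glutathione and the thioredoxin reductases. TKT encodes transketolase, which moves carbon between the pentose phosphate pathway and glycolysis. It had 15758, 6428, 3748 and 32560 normalized reads in dogs 1 to 4, an 8.69-fold range. Dog 4 was highest and dog 3 lowest, and the SD of its level (6.05 ± 1.39) was 1.05 without dog 4 and 1.19 without dog 3. PGD, an NADPH-making step of the oxidative branch, had 4087, 3111, 3208 and 2531 normalized reads, a 1.61-fold range with dog 4 lowest. Malic enzyme ME1 had 1204, 1347, 1844 and 750 normalized reads, also lowest in dog 4. Levels were 4.33 ± 0.28 for PGD, with an SD of 0.17 without dog 1, and 2.96 ± 0.52 for ME1, with an SD of 0.31 without dog 4.

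TKT alone set the order of the dogs in the reads of the whole group. The 32 genes held 0.375%, 0.364%, 0.325% and 0.461% of assigned reads in dogs 1 to 4, highest in dog 4. Without TKT the shares were 0.277%, 0.321%, 0.299% and 0.261%, and dog 4 was lowest. The median level of the members was close in the 4 dogs, at 2.58, 2.77, 2.74 and 2.55.

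The conjugating enzymes held the widest range of all members. MGST1, a membrane-bound glutathione transferase and peroxidase of the endoplasmic reticulum and mitochondria, had 291, 210, 79 and 1204 normalized reads in dogs 1 to 4. Dog 4 lay highest and dog 3 lowest, a 15.2-fold range, and the level of 0.93 ± 1.52 was neither above nor below. Without dog 4 its level was 0.03 and the SD 0.86. MGST3, a relative that also acts on leukotrienes and lipid peroxides, ran the other way with 793, 992, 1068 and 510 normalized reads and a level of 2.38 ± 0.46, with an SD of 0.21 without dog 4. The ratio of MGST1 to MGST3 spanned 31.6-fold between dogs. Its SD of 2.09 on the log2 scale was 1.17 without dog 4. The cytosolic transferase GSTP1 was steady at 1.74 ± 0.16.

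Of the methionine sulfoxide reductases, which repair oxidized methionine in proteins, MSRB3 had 1398, 1141, 1010 and 2472 normalized reads, highest in dog 4, and a level of 3.17 ± 0.57. Without dog 4 its SD was 0.24. MSRA, which acts on the other stereoisomer of the sulfoxide, had 120, 88, 162 and 106 normalized reads and was neither at -0.23 ± 0.32. The ratio of MSRB3 to MSRA spanned 3.73-fold.

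To set the spread between dogs against that of genes of like level, each gene's variance was divided by the trended prior variance that limma fits over all genes. No member passed after adjustment (0 of 32, smallest adjusted p = 0.212), nor did any gene of the 17200 (0%), so the test separates no member from the rest. At an unadjusted p under 0.05 there were 6 members, against 5.2% of all tested genes and 6.81% of genes above the median. These 6 were TXNIP, MGST1, TKT, SOD2, CAT and MSRB3, and without dog 4 there were 4. Of the 32 members 16 had a variance under the trend, against 56.0% of all genes. The median SD was 0.29 over the members, 0.36 over all tested genes and 0.24 over genes above. By the ratio of the highest to the lowest dog, 13 members stayed under 1.5-fold and 12 exceeded 2-fold. The shares of all tested genes within these limits were not computed, so the 2 counts have no background. The median ratio was 1.60-fold over the members, which include genes not above, against 1.46-fold over genes above.

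**Figure D3:**
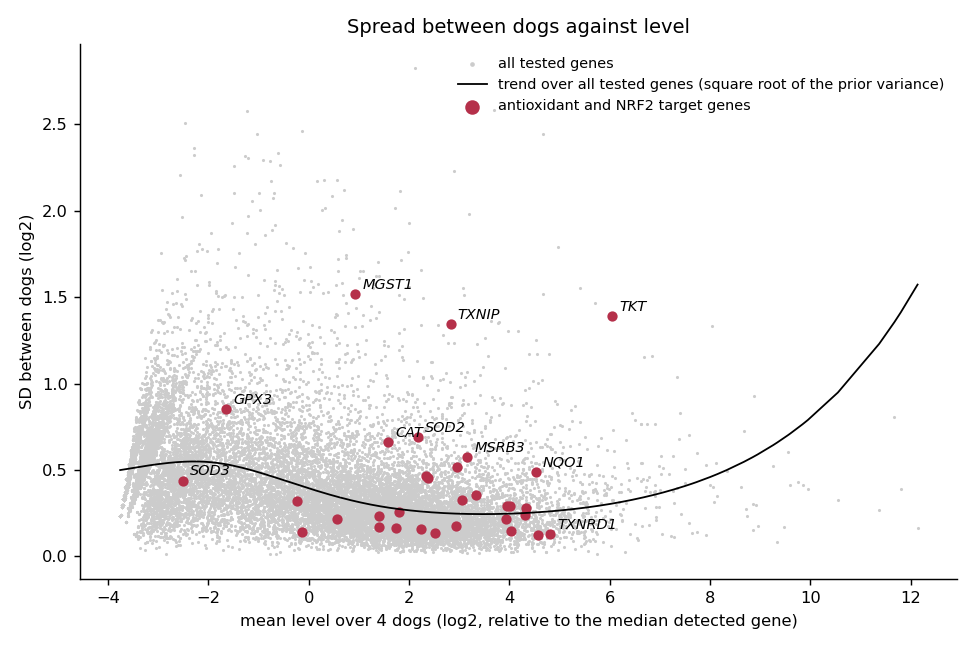
SD between the 4 dogs against mean level, both on the log2 scale, for all tested genes (grey) and the 32 members (red), with the square root of limma's prior variance as a line. MGST1, TXNIP and TKT lie far above the line at SDs of 1.52, 1.34 and 1.39, and 16 of the 32 members lie under it.

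Dog 4, the shallowest library, was the lowest of the 4 for 14 members and the highest for 8. Over all genes above the median, dog 4 was lowest for 34.8% and highest for 33.3%. The members include genes not above, and such shares by dog were not computed over all tested genes. Dog 3 was lowest for 12 members, dog 2 for 5 and dog 1 for 1, against 29.7%, 18.7% and 16.8% of all genes above the median. Leaving out 1 dog lowered the SD by over 1.5 times for 22 members in all, 10 of them without dog 4, 6 without dog 3, 4 without dog 2 and 2 without dog 1. The same count was not made over all tested genes. Leaving out the most distant of 4 dogs lowers the SD of any gene, so these counts do not mark the members. With all libraries thinned to the depth of dog 4, that dog was lowest for 14 members and highest for 9. One dog stood apart from the other 3, by a gap of more than Dixon's 95% limit relative to the range, for 3 members (PRDX4, PRDX6 and GPX8), against 5.36% of all tested genes and 5.71% of genes above the median. Under quantile normalization none of the 32 members had 1 dog apart.

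Beyond the members, the wider pathway was described through lists of related genes. As background for these counts, 5723 of all 30951 genes in the table were above and 6163 below. Of the 17200 tested genes, 33.3% were above and 35.8% below, shares that leave out genes not detected, which the lists count. No list was tested against these shares. Of 16 NRF2 regulators and partners, all of them measured, 9 were above, none was below and 1 was not detected. The autophagy receptor SQSTM1, which competes for KEAP1, stood at 4.49 ± 0.16, the repressor BACH1 at 3.49 ± 0.30 and CUL3, the ligase scaffold that KEAP1 recruits, at 3.37 ± 0.20. The small MAF partner MAFK (-0.20 ± 0.58) and the relative NFE2L3 (-1.48 ± 0.58) were neither, and NFE2L3 was below without dog 3 (-1.77) or dog 4 (-1.94). NFE2, the blood-cell relative, was not detected, with 3 reads in dog 2 alone.

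Among 23 other NRF2 targets in the table, 12 were above, 1 below, 6 neither and 4 not detected. The ferritin chain FTL stood at 5.65 ± 0.20 and FTH1, taken from the higher of its 2 rows, at 4.46 ± 0.36, and UGDH, which makes UDP-glucuronate, at 5.41 ± 0.78. The gastrointestinal peroxidase GPX2 was below at -2.88 ± 0.10. It had 8, 8, 5 and 3 reads in dogs 1 to 4, near the floor, where the log2 scale compresses the SD. The stress-induced OSGIN1 was neither at -1.04 ± 0.25. Heme oxygenase HMOX1, chosen after its values were seen, was above at 3.11 ± 0.99 with levels of 4.26, 2.88, 3.40 and 1.89 in dogs 1 to 4, highest in dog 1 and lowest in dog 4. AKR1C3, ABCC3 and ALDH3A1 had 0 reads in every dog, which over the 61335851 reads of the 4 libraries allows up to 0.0489 CPM (3 reads, counting error only).

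Other thiol, peroxide and glutathione genes counted 10 above, 2 below and 12 neither of 26 in the table. TXNDC5, a protein disulfide isomerase, stood at 4.27 ± 0.36, nucleoredoxin NXN at 3.83 ± 0.34 and GLRX3 at 3.43 ± 0.23, whereas the mitochondrial glutaredoxin GLRX5 was below at -2.66 ± 1.02 and GGT5 at -1.76 ± 0.95. Other NADPH sources counted 11 above, 1 below and 2 neither of 14. Mitochondrial ALDH1L2, which makes NADPH from folate, stood at 5.11 ± 0.23 and the transhydrogenase NNT at 4.33 ± 0.17. The cytosolic folate enzyme ALDH1L1 was below at -2.11 ± 0.81, and the kinase NADK2 was neither at 0.49 ± 0.53. PGLS, the lactonase of the pentose phosphate pathway, was above at 2.00 ± 0.17, and its SD and that of PGD were under 0.3, against 1.39 for TKT.

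Selenium-dependent enzymes among the members need a dedicated insertion machinery. Of 16 genes of selenoprotein synthesis and other selenoproteins in the table, 9 were above, 1 below and 6 neither. The endoplasmic reticulum proteins SELENOT and SELENOF stood at 4.07 ± 0.13 and 3.73 ± 0.27 and the synthetase-like SEPHS1 at 3.19 ± 0.21. PSTK, the kinase of the selenocysteine tRNA, was neither at -0.93 ± 0.53, and the plasma carrier SELENOP was below at -2.98 ± 0.76.

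Genes that produce reactive oxygen counted 1 above, 2 below, 6 neither and 6 not detected of 15 in the table. ERO1A, the oxidase that makes hydrogen peroxide while forming disulfides in the endoplasmic reticulum, was above at 4.86 ± 0.51. Its relative ERO1B (1.11 ± 0.11) and the oxidase subunit CYBA (1.22 ± 0.30) were neither. The NADPH oxidases NOX5 and DUOX1 were below at -3.26 ± 0.50 and -3.05 ± 0.77, near the floor. NOX5 had 6, 0, 3 and 3 reads in dogs 1 to 4 and DUOX1 5, 5, 0 and 9. Another NADPH oxidase, NOX4, was neither at 0.63 ± 0.34, with 220, 292, 297 and 102 reads. CYBB, the phagocyte oxidase, had 0 reads in every dog.

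**Figure D4:**
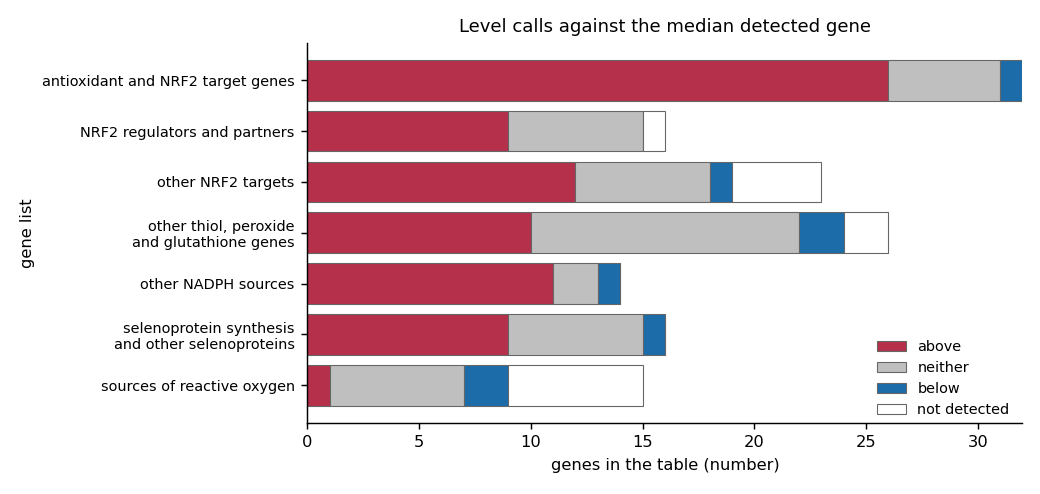
Number of genes above, neither, below and not detected relative to the median detected gene, for the members (top) and the wider lists, among genes in the table. The members have 26 of 32 above, and the sources of reactive oxygen 1 of 15. Of the 17200 tested genes, which leave out genes not detected, 33.3% were above.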

How the data were processed

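The submitters' processing notes name the genome build CanFam3.1 and the tools STAR 2.7.11a, Trimmomatic 0.39, FastQC 0.12.1 and DESeq2. Libraries were made from 10 ng of total RNA with a stranded kit that depletes ribosomal RNA, per the labels' protocols. By the name under which they were deposited, the values are the authors' variance-stabilized counts, and they were taken as log2. How reads were counted, with which strand setting and annotation, is not given in the sources used here. Reads shared with overlapping genes (MYH7B with GSS, UBXN8 with GSR, EID3 with TXNRD1, THSD8 with PRDX2 and CDC20B with GPX8 in the RefSeq table of another dog assembly) cannot be told apart. Columns were matched to samples by dog number, and 0 columns were left unused.

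The transformation was inverted from its lowest value. All values came out as whole reads within 0.01 reads (100% in each library), with size factors of 1.39, 1.08, 1.05 and 0.461 for dogs 1 to 4. The log2 scale compresses levels and SDs near the floor, and folds between dogs are ratios of normalized reads, with 0.5 reads added in ratios of 2 genes. The level test was limma 3.58.1 (R 4.3.3), fitted with an intercept alone, a prior trended on level and, as its distance, 1 log2 unit, over 17200 genes. Variability was tested by an F test against the prior. Both were tried on simulated data. The variable genes simulated there had larger SDs between dogs than any member (largest 1.52), so the power of the F test at the members' spreads was not tested. The labels name 1 primary cell line per dog, so p-values measure the spread between these libraries. The planned comparison of gene pairs per length, for which 9 of 14 pairs are in the table, was replaced by ratios between dogs, since no transcript lengths were at hand. No sequences were at hand to print.

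Members and lists were chosen with earlier results of these data known. Every member in the table is named. All dogs' values are given for the regulators, NQO1, members below the median, the 6 largest SDs and members with 1 dog apart, and further members were given so after their values were seen. Of each wider list the 3 highest and 2 lowest detected genes, by level uncorrected for length, are named, except 1 that is not reported here. PGLS, NOX4 and TXNRD3 were added after their values were seen.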

Additional observations from a re-analysis of the deposited data

Results flagged for a closer look

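For 3 genes 1 dog lay far from the other 3 relative to the range of the group. PRDX4 had a level of 4.24 in dog 3, against 3.95, 3.94 and 3.96 in dogs 1, 2 and 4. PRDX6 had a level of 4.45 in dog 4, against 3.89, 3.85 and 3.87 in dogs 1 to 3. GPX8 had a level of 2.80 in dog 4, against 3.50, 3.48 and 3.56 in dogs 1 to 3. Chance flags about 1 in 20 groups, and 5.36% of all tested genes met the same limit. Under quantile normalization, an alternative added after seeing the data, 0 of the 32 members did, so none of these 3 kept its place.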

How the results depend on the processing

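Over 13 alternatives, 20 of the 32 members kept their call in each and none reversed. The count above was 26 under quantile normalization, either pseudocount, no trend in the prior and a test of only genes with reads in all dogs, 25 with no filter, 23 after thinning and 20 with the median over genes with reads in all 4 dogs, which lowers the members' median level from 2.67 to 1.85 and ends the calls of GCLC, GSR, TXN2, SOD2, CAT and GSTP1. At a distance of 2 log2 units 16 were above and 0 below. The count below was 2, with GPX3 beside SOD3, with that other median, with a pseudocount of 1 or 0.5 and after thinning, and 1 to 2 when each dog was left out, when 23 to 25 were above. Members at an unadjusted variability p under 0.05, a count added after seeing the data, were 2 with no filter, 3 with no trend and 4 to 7 without 1 dog. None passed after adjustment in any setting; over all genes 2 did after thinning and 1 without dog 4. Under quantile normalization 0 members had 1 dog apart, and under the other 4 settings tried 3 or 4 had. Over all genes, the count above was 3729 with the other median and 3289 at a distance of 2, and the count below was 2830 among genes with reads in all dogs and 19520 with no filter, against 5723 and 6163. In the wider lists, leaving out 1 dog (added after seeing the data) moved no count above by over 1.5 times; NRF2 regulators and partners had 1 gene below without dog 3 or 4, in place of 0. Leaving out dog 4 moved the SD of the ratio of PRDX1 to PRDX2 (0.17 in place of 0.34), PRDX6 to PRDX1 (0.15 in place of 0.48) and NFE2L1 to NFE2L2 (0.13 in place of 0.39), and leaving out dog 1 that of KEAP1 to NFE2L2 (0.10 in place of 0.18). The cause of these changes was not tested. A correction for length was not run, since no lengths were at hand. No paired analysis was possible because the labels give 1 group. Depth limits SOD3 and GPX3.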
